A study of Drosophila melanogaster with 3 samples.

Results

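The X chromosome of *Drosophila melanogaster* contributed 707 isoform models to an assembly of 5980 models from adult heads, against 5214 on chromosomes 2 and 3 combined. Its models were chosen by the chromosome name alone, so no measured value entered the choice. An isoform model is a chain of exons with a fixed 5′ and 3′ end, built from full-length reads of single mRNA molecules. The heads came from 3-day-old flies of the strain w1118, the wild type of the study, which carries a mutant *white* gene. The 3 untreated samples form a single group, and FLAM-seq, which reads cDNA through the poly(A) tail on a PacBio instrument, was run on 4 µg of total RNA. The reads of the samples were pooled before assembly, so none of the values below has an error over samples, and the number of reads behind a model is unknown. By the study's methods, adult flies of both sexes were used in equal amounts. Gene identifiers on the X numbered 573 and are treated as genes, while 18 X models carried no identifier. The question asked of each measure was whether the X genes differ from the 4089 genes of chromosomes 2 and 3.

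Male flies carry a single X and females a pair of them. In males the MSL complex, a set of proteins joined by the noncoding RNAs *roX1* and *roX2*, binds GA-rich sites on the X and raises its transcription, a process known as dosage compensation. In females the splicing factor Sex-lethal blocks this complex and sets sexual fate. Fly introns fall into a class of very short ones, recognised as a unit across the intron, and a class of longer ones that can be far longer than the mRNA. Each mRNA begins at a transcription start site (TSS) and ends at a poly(A) site, which in most cases lies downstream of a hexamer such as AATAAA.

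The first sequences are examples of short X introns and, without autosomal introns beside them, cannot show a difference between chromosomes. They come from the NCBI Release 6 genome, the dm6 build, and are written 5′ to 3′ on the strand of the gene, with the first and last 2 bases of the intron in capitals. The *CG2233* intron (X:8037213-8037261, minus strand) was the shortest of the X at 49 nt, and that of *temp* (X:2261416-2261465, minus strand) had 50 nt. The introns of *Gs2* (X:11429174-11429238, plus strand) and *wupA* (X:18106823-18106887, minus strand) had 65 nt, the most frequent length on the X. All 4 lie between coding exons.
CG2233 intron: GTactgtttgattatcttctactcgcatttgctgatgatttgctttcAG
temp intron: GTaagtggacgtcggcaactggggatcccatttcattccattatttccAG
Gs2 intron: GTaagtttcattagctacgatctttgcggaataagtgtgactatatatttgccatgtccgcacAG
wupA intron: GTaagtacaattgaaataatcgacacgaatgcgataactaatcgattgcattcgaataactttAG

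Of the 1414 distinct X introns, 1404 began with GT and ended with AG, 8 were GC-AG and 1 was AT-AC. The exceptions are shown because they depart from GT and AG. Splice sites had been corrected by the authors, and each exception was an annotated intron. The AT-AC intron lay in *CG1354* (X:9779243-9780240, plus strand, 998 nt), and its 5′ and 3′ ends are given below. The longest of the GC-AG introns lay in *wupA*, the gene of troponin I (X:18106932-18111937, minus strand, 5006 nt). The single GT-CG intron belonged to *CG14414* (X:14580847-14580918, plus strand, 72 nt). The other GC-AG introns lay in *Tsp5D*, *DIP1*, *CG14777*, *CG3566*, *CG4313*, *Mvd* and *zyd* and had 57 to 756 nt.
CG1354 intron 5′ end: ATaagtattccccaacacacacat
CG1354 intron 3′ end: cgatggcttttgccttacccacAC
wupA intron 5′ end: GCaagcagctcc
wupA intron 3′ end: aacgtgcctggcttggcaacacAG
CG14414 intron 5′ end: GTaagttgtgcc
CG14414 intron 3′ end: ttcaatttgcattgccccctatCG

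The last sequences are the 30 bases that end at the 3′ ends of 3 genes with alternative poly(A) sites, described further below, with 1 occurrence of AATAAA, or else of ATTAAA, in capitals where there is any. They show which ends of a gene carry either of these hexamers. Other hexamers that the study's methods list as poly(A) signals, such as AATGAA, were not marked. All 3 ends of *shi* (end 1 at X:15904428-15904457, end 2 at X:15906223-15906252 and end 3 at X:15906687-15906716, plus strand) carried AATAAA. Neither end of *Act5C* (X:5904435-5904464 and X:5904759-5904788, plus strand) carried either hexamer in this window. In *wupA* (X:18105569-18105598 and X:18105394-18105423, minus strand) the upstream end had ATTAAA and the downstream end had neither.
shi 3′ end 1: aactattAATAAAtagctttcgttaactgc
shi 3′ end 2: gtgaAATAAAaaaaaaaaaatttattttcc
shi 3′ end 3: aataagaaAATAAAgaaaaattaaattatt
Act5C 3′ end 1: aacaaaaatatgaaaacaaaaaggaaaatc
Act5C 3′ end 2: actgatgaaatgaaacaacaacaagcgaac
wupA 3′ end 1: atattttttaatgtaaattaaATTAAAtta
wupA 3′ end 2: tatagttttgaatgaaaagacagcgatatt

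X genes were less often represented in the assembly than genes of chromosomes 2 and 3. Of 2196 annotated protein-coding genes on the X, 564 had a model, which is 25.7% (Wilson 95% interval 23.9 to 27.6%). On chromosomes 2 and 3 the share was 34.7% (33.9 to 35.6%, 4054 of 11669). The difference, X minus chromosomes 2 and 3, was -9.06 percentage points (-11.0 to -7.00), with an odds ratio of 0.649 (95% interval 0.585 to 0.720, adjusted p = 5.91e-16, two-sided Fisher's exact test). Here and below p-values are adjusted over the 14 tests of X against chromosomes 2 and 3 by Benjamini-Hochberg. For an alternative setting, its p-value took the place of the main one among the 14. The number of alternatives tried is therefore not adjusted for. Intervals of shares are Wilson 95% intervals, and genes serve as the units of the tests although they are not independent replicates. All intervals cover counting error within this single assembly.

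The lower coverage of the X was seen at most transcript lengths. The shortest annotated transcript of a coding gene had a median of 1695.5 nt on the X and 1486 nt on chromosomes 2 and 3, so genes were also compared within length classes. Where this transcript was under 1 kb, 32.0% of the 544 X genes and 37.8% of the autosomal genes had a model. From 1 to 2 kb the shares were 35.6% and 43.3%. From 2 to 3 kb they were 23.4% and 34.1%, a wider gap. From 3 to 5 kb, 4.89% of X genes (15 of 307) and 12.8% of autosomal genes had a model. At 5 kb or more the order turned, with 2.52% (0.983 to 6.29%, 4 of 159) of X genes and 1.64% (0.835 to 3.21%, 8 of 487) of autosomal genes, and the intervals overlapped. Coverage also varied along the X. In blocks of 4 Mb it ranged from 22.3% (18.4 to 26.8%) to 30.4% (26.2 to 35.0%) over the first 5 blocks, and was 15.9% (11.4 to 21.7%, 31 of 195 genes) in the last, from 20 Mb to the end at the centromere.

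**Figure D1:**
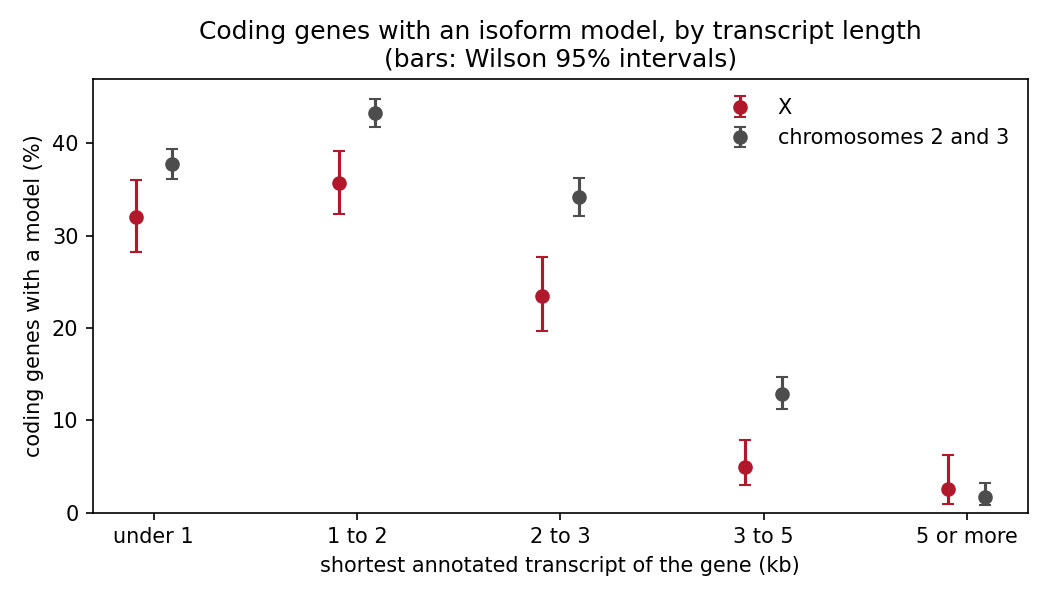
Share of annotated coding genes with an isoform model (y axis, percent) by the length of the shortest annotated transcript (x axis, kb), for the X (red) and chromosomes 2 and 3 (grey), with Wilson 95% intervals. The X lies below in every class up to 5 kb, for example at 23.4% against 34.1% from 2 to 3 kb.

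The median intron was longer on the X, and by odds ratio intron length, over introns of all sizes, differed most among the 14 measures tested. The median of the 1414 distinct X introns was 100 nt (exact 95% interval 89 to 115 nt) and that of the 11384 introns of chromosomes 2 and 3 was 70 nt (69 to 70 nt). The most frequent length was 65 nt on the X, found in 42 introns, and 62 nt on chromosomes 2 and 3, found in 465. Introns of up to 60 nt made up 12.2% (10.6 to 14.0%) of X introns and 26.6% (25.8 to 27.4%) of the others. Up to 65 nt the shares were 25.2% and 42.5%, and up to 100 nt they were 50.1% and 60.7%. Among introns of up to 100 nt alone, the medians were 65 nt on the X and 62 nt elsewhere. The peak of short introns was thus displaced to greater length by a few bases, and a larger share of X introns lay beyond it.

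**Figure D2:**
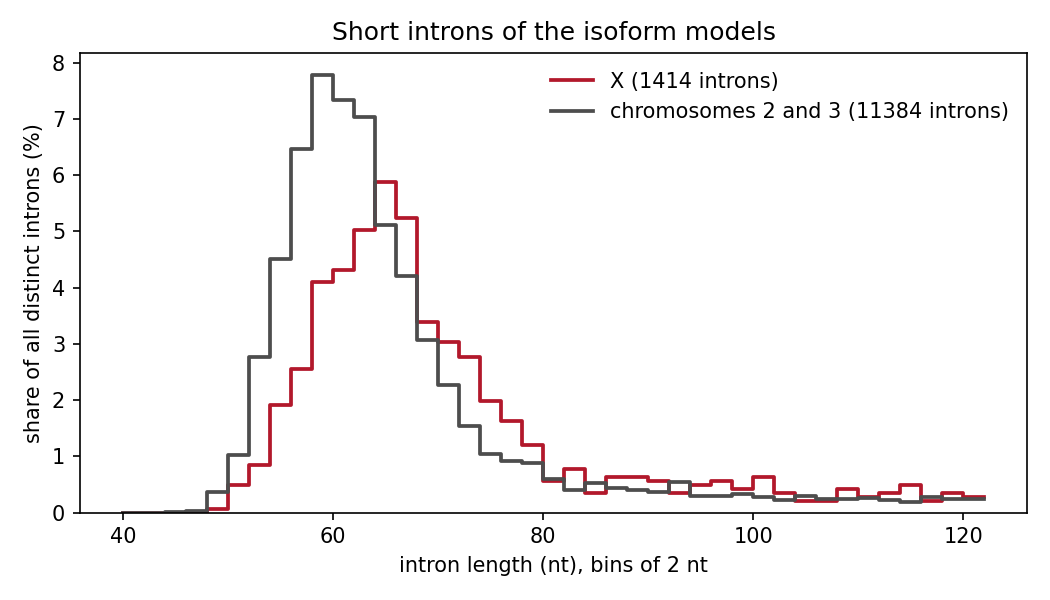
Share of all distinct introns (y axis, percent) in bins of 2 nt of intron length (x axis, nt) for the X (red, 1414 introns) and chromosomes 2 and 3 (grey, 11384 introns). The X peak lies to the right of the autosomal peak, with most frequent lengths of 65 and 62 nt, and is lower.

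Tested by gene, with the median intron of each gene as the unit, 66.3% (328 of 495) of X genes and 47.3% (1660 of 3510) of autosomal genes lay above the pooled median of 72 nt. The odds ratio was 2.19 (1.79 to 2.68, adjusted p = 1.46e-14, Fisher's exact test). No such difference was detected among introns over 100 nt. Introns over 100 nt had a median of 522.5 nt (433 to 604 nt) on the X and 531.5 nt (496 to 560 nt) on chromosomes 2 and 3. Counted by gene, the median of the introns over 100 nt lay above the pooled value in 48.2% of X genes and 50.3% of autosomal genes (odds ratio 0.921, 0.725 to 1.17, adjusted p = 0.904, Fisher's exact test), whereas for introns of up to 100 nt the shares were 72.2% and 45.6% (odds ratio 3.10, 2.44 to 3.96, adjusted p = 5.86e-22, Fisher's exact test). This split was chosen after seeing the data. The longest intron of each gene exceeded the pooled median of 202 nt in 56.2% of X genes and 49.0% of autosomal genes (odds ratio 1.33, 1.10 to 1.62, adjusted p = 0.0157, Fisher's exact test), a call that was lost against chromosome 3 alone (odds ratio 1.25, adjusted p = 0.0733, Fisher's exact test).

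Taken as a whole, the X also stood outside the range of the 4 large autosome arms. Median intron lengths were 70 nt on 2L, 67 nt on 2R, 77 nt on 3L and 69 nt on 3R, all below the 100 nt of the X. The median varied along the X in blocks of 4 Mb. It was 74.5 nt in the first block (214 introns), which is below that of 3L, and 272.5 nt in the last (64 introns). The blocks between had medians of 94 to 114 nt. The share of introns of up to 60 nt ran from 22.5% on 3L to 29.8% on 2R, against 12.2% on the X. The same order was found in the annotation itself. The annotated introns of coding genes had a median of 157 nt (145 to 168 nt) on the X and of 83 to 107 nt on the 4 arms. Of the X introns in the models, 1408 of 1414 were annotated. GC content was 40.02% in X introns and 39.60% in those of chromosomes 2 and 3.

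**Figure D3:**
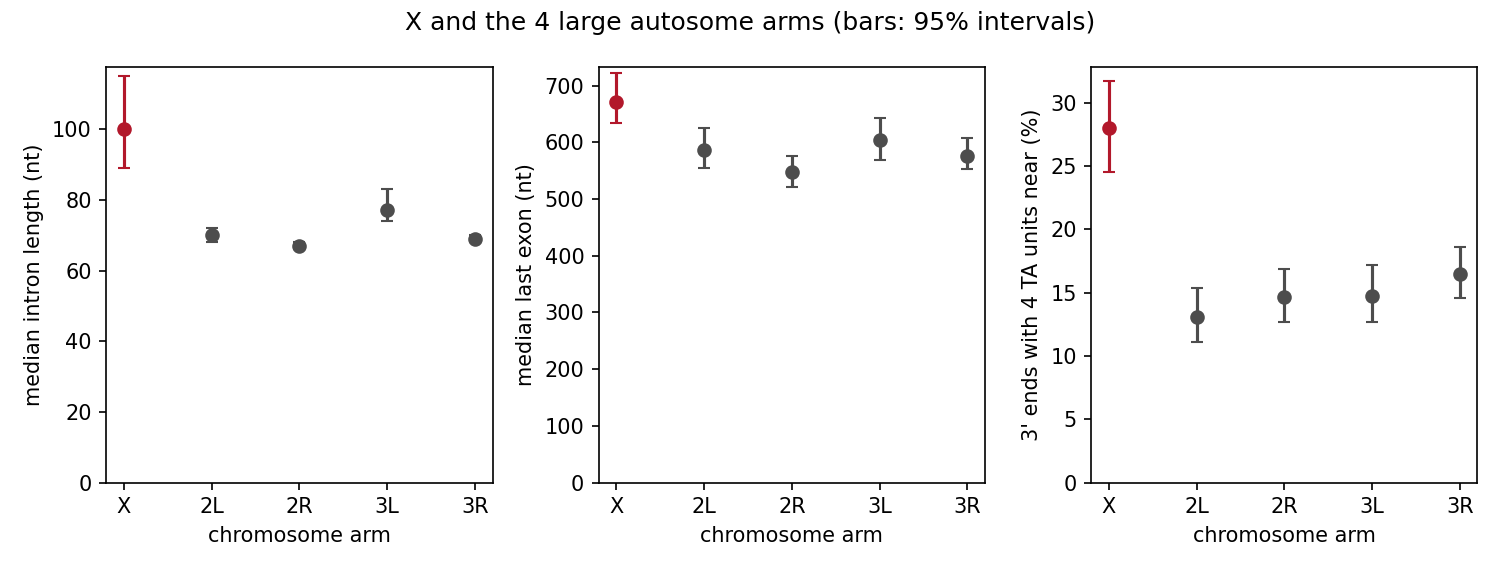
Median length of distinct introns (left, nt), median length of the last exon of multi-exon models (middle, nt) and share of 3′ ends with a run of 4 TA units within 500 nt (right, percent) for the X (red) and the 4 large autosome arms (grey), with 95% intervals. The X is the highest in each panel, at 100 nt, 672 nt and 28.0%.

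X models had fewer exons and longer last exons, at similar median lengths of mRNA. The median length was 1477 nt (1392 to 1552 nt) for X models and 1485 nt (1455 to 1515 nt) for those of chromosomes 2 and 3, and the median exon number was 3 in both. By gene, 50.1% of X genes and 49.99% of autosomal genes lay above the pooled median length of 1420.5 nt (odds ratio 1.004, 0.840 to 1.20, adjusted p = 1, Fisher's exact test). More than 3 exons were found in 36.0% of X genes (206 of 573) and 41.7% of autosomal genes (odds ratio 0.785, 0.651 to 0.944, adjusted p = 0.0271, Fisher's exact test). The last exon, which holds most of the 3′ UTR in a typical gene, had a median of 672 nt (634 to 722 nt) in X models and 576 nt (563 to 593 nt) in the others. It exceeded the pooled median of 583.5 nt in 56.0% of X genes and 49.1% of autosomal genes (odds ratio 1.31, 1.08 to 1.60, adjusted p = 0.0162, Fisher's exact test). The arms ranged from 547 nt on 2R to 605 nt on 3L. Against chromosome 3 alone the odds ratio was 1.26 and the call was lost (adjusted p = 0.0638, Fisher's exact test).

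Other structural measures did not pass the test. Genes with at least 1 single-exon model made up 14.1% (81 of 573) on the X and 14.7% elsewhere, an odds ratio of 0.955 (0.734 to 1.23, adjusted p = 0.952, Fisher's exact test). The genomic span of a gene had a median of 1865 nt on the X and 1830 nt elsewhere (odds ratio 1.03, 0.860 to 1.23, adjusted p = 0.952, Fisher's exact test). An unannotated splice chain, meaning a set of introns not found together in an annotated transcript, occurred in 12.1% (60 of 495) of X genes and 12.4% of autosomal genes (odds ratio 0.972, 0.716 to 1.30, adjusted p = 0.952, Fisher's exact test). These intervals bound the differences that could have gone unseen, and a missed threshold does not show that X and autosomal genes are alike.

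**Figure D4:**
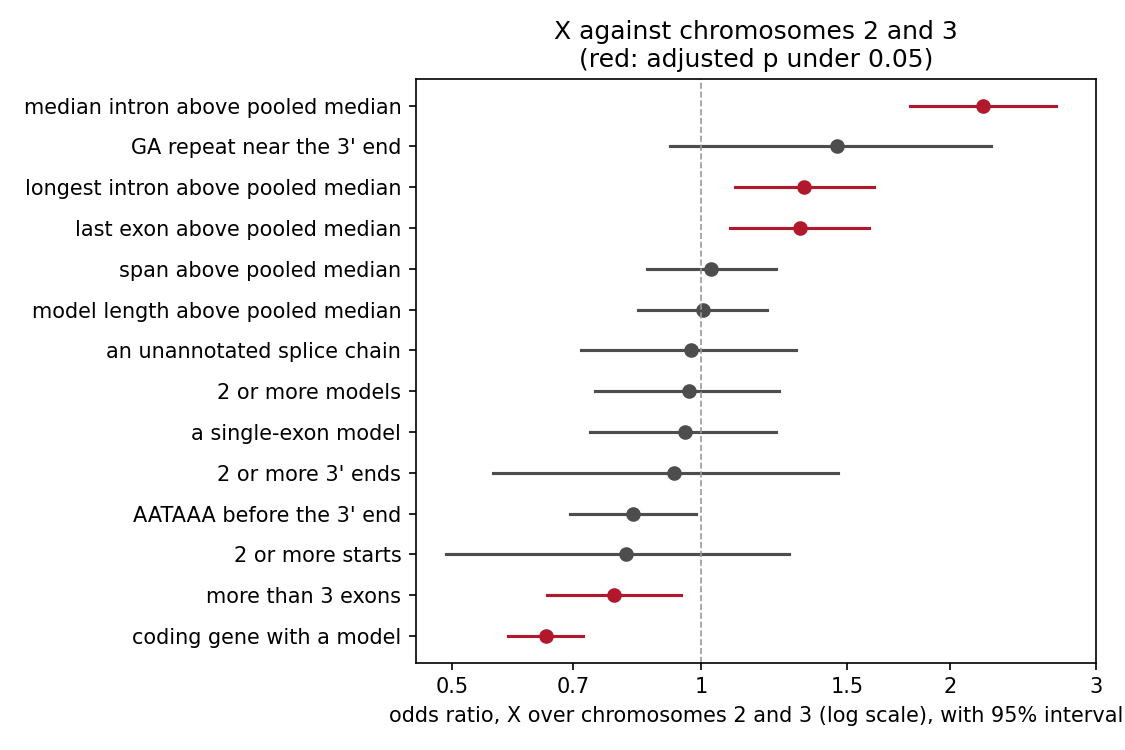
Odds ratios of 14 measures for X genes or 3′ ends over those of chromosomes 2 and 3 (x axis, log scale), with conditional exact 95% intervals. Red marks the 5 measures with an adjusted p under 0.05, from 0.649 for coding genes with a model to 2.19 for intron length.

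Most X genes had a single model. Of the 573 genes, 491 had 1 model, 60 had 2, 17 had 3 and 5 had 4 or more, so that 82 genes (14.3%) had several. On chromosomes 2 and 3 the share was 14.7% (odds ratio 0.965, 0.743 to 1.24, adjusted p = 0.952, Fisher's exact test). Neighbouring start sites within 50 nt were merged, and neighbouring 3′ ends within 150 nt, as in the windows of the study. After merging, 22 X genes (3.84%) had several TSSs, against 4.70% of autosomal genes (odds ratio 0.810, 0.492 to 1.28, adjusted p = 0.692, Fisher's exact test). Several 3′ ends were likewise found in 22 X genes (3.84%), against 4.13% (odds ratio 0.926, 0.560 to 1.46, adjusted p = 0.952, Fisher's exact test). In 45 of the 82 genes the models shared 1 TSS and 1 3′ end and differed in splicing or by less than these windows. Alternative TSSs lay farther apart than alternative 3′ ends, with medians of 1725.5 nt (range 174 to 19275 nt) and 441 nt (range 175 to 12666 nt) between the outermost sites. Of the 22 genes with alternative 3′ ends, 14 used tandem sites in the same last exon and 8 differed in the last exon or its acceptor.

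The gene with the most X models was *Gs2*, glutamine synthetase 2, which makes glutamine from glutamate and is active in glia. Its 8 models spanned X:11422833-11430312 on the plus strand. A single model began at the upstream TSS and 7 at a TSS 1125 nt downstream, and all ended within the same 150-nt window. Of the models, 6 had annotated splice chains and had 1811 to 1989 nt. Of these 6, the model of 1989 nt kept the first intron. The remaining models had unannotated chains and also kept introns. The last intron was retained in a model of 1888 nt. The first intron and the long second one of 4074 nt were retained in a model of 6063 nt, the longest on the X. *AMPdeam*, which encodes AMP deaminase, an enzyme that converts AMP to IMP, followed with 6 models (X:13830742-13845866, minus strand). They used 4 TSSs, at 0, 5855, 7768 and 9501 nt from the first, and ended at 1 site. A 36-nt exon was present in 2 of the 6 models, 1 from each of the first pair of TSSs, and a shift of 9 nt at the next acceptor gave an exon of 119 or 128 nt. Only 2 of the 6 chains were annotated.

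*wupA* encodes troponin I, the inhibitory subunit of the troponin complex of muscle (X:18105394-18116825, minus strand). Its 5 models shared the TSS and had 8 exons each. Exon 5 had 101 nt in each model but came from 4 different places, starting 4163, 4787, 6221 or 7255 nt from the TSS, so that 4 of the models had the same length of 1159 nt. The remaining model used a 3′ end 175 nt farther downstream and had 1334 nt. All 5 chains were annotated. *shi* encodes dynamin, the GTPase that pinches off synaptic vesicles (X:15892117-15906716, plus strand). It had 1 TSS and 3 3′ ends, 1795 and 2259 nt beyond the first. The first end belonged to a separate last exon of 668 nt, and the others to a last exon of 479 or 943 nt with a common acceptor. A 12-nt exon was present in 2 of the 4 models, 1 at the first and 1 at the second 3′ end. *Moe*, the gene of moesin, which links actin to the plasma membrane, had 4 models (X:8873013-8898000, minus strand). Of these, 1 began 19275 nt upstream of the TSS used by the other 3, the widest spacing of TSSs on the X.

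The other genes named for their number of models had 3 each. *Sxl*, the master switch of female fate (X:7082922-7098053, minus strand), had 3 models of 3244, 3286 and 3515 nt with 8 exons, 1 TSS and 1 3′ end, and none of the chains was annotated. A pair of annotated forms of an exon, of 172 and 190 nt, each occurred in 1 model. Of the 9 annotated *Sxl* transcripts with this exon, 7 end their reading frame in it. As background, the exon that closes the *Sxl* reading frame is kept in males and skipped in females. *zyd*, a sodium/calcium exchanger of glia, had TSSs 5121 nt apart. *sesB*, the ADP/ATP carrier of the mitochondrial inner membrane, had TSSs 2449 nt apart and a model of 3388 nt with 2 exons beside 2 models of 1633 and 1639 nt with 4. *CG7378* had tandem 3′ ends 771 nt apart. In *CG1640* the 3 TSSs spread over 3474 nt and the pair of 3′ ends over 390 nt.

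Both several TSSs and several 3′ ends were found in 7 X genes, 1.22% of all (0.593 to 2.50%), against 1.79% (1.42 to 2.24%) on chromosomes 2 and 3, a difference that was not tested. *Act5C*, a cytoplasmic actin (X:5900862-5904788, plus strand), used its first TSS with both 3′ ends, in models of 1927 and 2251 nt. Its second TSS, 1121 nt downstream, had a model with the distal 3′ end only. The models carry no read counts, so a combination without a model may still occur. From nanopore reads, the paper presents *Act5C* as a gene whose TSSs showed no bias towards a 3′ end. In *CkIalpha*, *MFS10*, *Sclp* and *S6KL* each of the 2 models had its own TSS and its own 3′ end. The downstream TSS went with the distal 3′ end in *CkIalpha*, casein kinase I, with TSSs 174 nt and 3′ ends 559 nt apart, and in *Sclp*, with 1902 and 557 nt. In *MFS10*, a transporter, the TSSs lay 2498 nt and the 3′ ends 4549 nt apart, and the models did not overlap, so that position alone fixed this pairing. *S6KL*, a protein kinase, had the opposite pairing. Its upstream TSS led to the distal 3′ end, 12666 nt beyond the 3′ end reached from the TSS 1698 nt downstream.

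The longest X introns were all flanked by GT and AG. The longest of all, 211034 nt, belonged to *RpL7A*, a protein of the large ribosomal subunit. It was not annotated, spanned 23 other coding genes entirely, and joined a first exon of 20 nt (X:6744196-6744215) to 5 exons at the gene's own locus. This exon began at the same position, on the same strand, as the model of *RpL17*, another ribosomal protein gene. Whether so short a first exon was placed correctly was not tested. The next were annotated, with 69246 nt in *Mnr*, 48434 nt in *Fas2*, a cell adhesion molecule of axons, 32124 nt in *CG12541* and 23158 nt in *CARPB*. Introns over 1 kb made up 17.3% (244) of X introns and 13.9% of those of chromosomes 2 and 3, and those over 10 kb 1.91% (27) and 1.76%. After *Gs2*, the longest models were those of *CG15765* with 4387 nt, *Hex-A*, a hexokinase, with a single exon of 3923 nt, *shi* with 3904 nt and *flw*, the catalytic subunit of protein phosphatase 1 beta, with 3882 nt. Models over 3000 nt were few, at 4.95% (3.58 to 6.81%, 35 of 707) on the X and 6.21% on chromosomes 2 and 3.

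Around the 3′ ends, neither the poly(A) signal nor the GA repeat passed its main test, while CA and TA repeats were more frequent on the X. Within 50 nt before the cleavage position, AATAAA occurred at 50.3% (300) of the 596 X 3′ ends and at 55.1% of the 4281 others (odds ratio 0.827, 0.694 to 0.985, p = 0.0314 and adjusted p = 0.0733, Fisher's exact test), which did not pass after adjustment. ATTAAA was found at 16.9% and 16.2% of ends, and AATATA at 15.4% and 13.2%. A run of 4 GA units, searched on both strands within 500 nt on either side, was near 4.53% (27) of X ends and 3.15% of the others (odds ratio 1.46, 0.918 to 2.24, adjusted p = 0.174, Fisher's exact test). Runs of other dinucleotides were more frequent near X ends, and whether this holds away from 3′ ends was not tested. For 4 CA units the shares were 14.6% and 10.04% (odds ratio 1.53, 1.18 to 1.97, adjusted p = 0.00498, Fisher's exact test). For 4 TA units, a repeat examined after seeing the data, they were 28.0% (167) and 14.9% (odds ratio 2.23, 1.82 to 2.72, adjusted p = 1.62e-13, Fisher's exact test), and the 4 autosome arms lay between 13.1% on 2L and 16.5% on 3R. The result for GA depended on the number of units. With 5 GA units the shares were 2.18% and 0.864% (odds ratio 2.56, adjusted p = 0.0200, Fisher's exact test).

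Gene groups of the X are described by how many members had a model, beside the 25.7% of all coding X genes. Of 5 X genes of dosage compensation and sex determination, *Sxl* and *snf*, a spliceosomal protein, had models. The noncoding RNA genes *roX1* and *roX2* and the acetyltransferase gene *mof* had none. The share of coding genes is no measure for *roX1* and *roX2*, although 3 other noncoding X genes had a model. By the study's methods, its poly(A) site database holds protein-coding transcripts only. The part of this database in the absence of *roX1* and *roX2* was not tested. The shortest annotated transcript of *roX2* has 522 nt, that of *roX1* 3460 nt and that of *mof* 3014 nt. All 3 yolk protein genes of the X, *Yp1*, *Yp2* and *Yp3*, which are expressed in the female fat body, had 1 model each. In the group of yolk and fat body genes 6 of 7 had a model, among them *Lsd-2*, a perilipin of lipid droplets, with 3 models, *regucalcin* with 2 from TSSs 1059 nt apart, and *Tsf1*, transferrin, with 1.

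Muscle and cytoskeleton genes and ribosomal protein genes were mostly present. Of 9 X genes of muscle and cytoskeleton 7 had a model, including *wupA*, *Act5C*, *Actn*, the gene of alpha-actinin, with 2 models of 3305 nt, and *flw*. Of 14 X ribosomal protein genes 12 had a model, and *RpL35*, *RpL36*, *RpS14a* and *RpS15Aa* had 2. The *RpL35* models began 333 nt apart, and those of *RpL36* shared both ends and differed in the length of an exon. In oxidative phosphorylation 8 of 13 genes had a model. *COX6B*, a cytochrome c oxidase subunit, had 3 models of 783, 786 and 820 nt, and *ND-20* and *ND-B16.6* of complex I had 2 each with 3′ ends 444 and 220 nt apart. Proteasome genes had a model in 4 of 6 cases, among them *Prosalpha4* and *Rpt3*, and central metabolism in 5 of 9, among them *sesB*, *Ant2*, *Hex-A* and *Gapdh2*, which had tandem 3′ ends 423 nt apart.

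Neuronal and eye genes had a model about as rarely as X genes in general. Of 26 X genes of neuron and synapse 5 had a model, namely *shi*, *comt*, the vesicle fusion ATPase NSF, with 2 models, *Fas2*, *dlg1*, a synaptic scaffold, and *nAChRalpha7*. Those without a model included *elav*, the classic marker of neurons, with a shortest annotated transcript of 2248 nt, *para*, the voltage-gated sodium channel, with 5712 nt, and *cac*, a calcium channel, with 8276 nt. Of 16 eye genes 4 had a model, *ras*, *cm*, *rdgB* and *v*. The enzymes of eye pigment synthesis *v*, tryptophan dioxygenase, and *ras*, IMP dehydrogenase, were present, the latter with tandem 3′ ends 240 nt apart, while *white*, mutant in this strain, and *norpA*, the phospholipase C of phototransduction, had none. Transcript length differs between the groups, and its part in their counts was not tested. A gene without a model may still be expressed, because a model needed more than a single full-length read and a 5′ end in the promoter database.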

How the data were processed

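FLAM-seq libraries of 3 head samples were pooled by the authors, mapped with STARlong and assembled with FLAIR, with splice junctions corrected by short reads, 5′ ends taken from the Eukaryotic Promoter Database and at least a pair of full-length reads per model. The deposited values are exon start and end positions (dm6), no counts were used here, and so depth is unknown and no sample could be left out. The submitters' processing notes also name featureCounts. The authors' methods describe a filter and a correction of 3′ ends against a database of poly(A) sites, and whether the deposited file was made before or after that step is not stated. Correction of junctions and the promoter requirement limit which introns and TSSs can appear.

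Models were set against Ensembl release 115 and the NCBI Release 6 genome with Python 3.11.15, numpy 2.4.6 and scipy 1.17.1. Of 4696 gene identifiers 4662 matched, and 6 X identifiers did not. The gene's strand replaced the recorded one in models of 1 exon, since 79 of 80 on the X were recorded opposite to it. Shares were compared with two-sided Fisher's exact tests, Benjamini-Hochberg adjusted over 14 tests at a threshold of 0.05, giving the sample odds ratio and its conditional exact 95% interval. The pooled median divided each length measure. The test script was tested on simulated data. Alternatives covered chromosome 2 or 3 alone, identifiers, windows, strands, motifs and length classes. Named genes are the 10 with the most models, the 5 with the longest model, the 5 with the longest intron, those with several TSSs and 3′ ends, and up to 4 members of each list. Of the genes with several TSSs and 3′ ends, 1 is not reported here. Further genes were named after their values were seen. Members, lists and tests were chosen with earlier results of these data known.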

Additional observations from a re-analysis of the deposited data

How the results depend on the processing

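Each of the 14 tests was repeated under alternatives, 85 in all, of which 8 were chosen after seeing the data, and 75 kept the direction and the side of the threshold. Odds ratios are for X over chromosomes 2 and 3, with Fisher's exact test throughout. Against chromosome 3 alone, the longest intron (1.25) and the last exon (1.26) no longer passed, and the odds ratio of model length turned to 0.997. It was 0.999 with all gene identifiers and 0.981 with every model counted once, each close to 1 and without a call. The GA repeat passed with 5 GA units (2.56) and, as an added alternative, upstream of the 3′ end only (2.31). It did not pass within 250 nt on each side (1.85), or against chromosome 2 (1.59) or chromosome 3 (1.35) alone. Other repeats searched in its place also passed, 4 CA units (1.53) and, as an added alternative, 4 TA units (2.23). The added alternative of introns over 100 nt turned intron length to 0.921. The odds ratio of genes covered stayed between 0.524 and 0.775 and that of exon number between 0.749 and 0.798. The cause of these changes was not tested, except that motif and intron class differ by construction. The planned count of every distinct intron for the longest intron was not run, since it coincides with that for intron length. No paired analysis was possible because the 3 samples form a single group and were pooled before assembly.

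Read numbers are unknown, so a low count of models or ends cannot be told apart from low depth. Intervals cover counting error only, and models of long transcripts are few.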

Other observations

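The 18 X models without a gene identifier were short of exons, with 17 of a single exon and 1 of 2, and had 142 to 2172 nt. With single-exon models turned to the strand opposite to the recorded one, all but a single model of 894 nt overlapped an exon of a coding gene on that strand. Among the genes overlapped were *Yp3* (1622 nt), *Gapdh2* (1516 nt) and *Prx2* (2172 nt).

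A few further X genes of stress defence, protein folding and translation are named here after their values were seen. *Hsc70-3*, the Hsp70 chaperone of the endoplasmic reticulum, had 3 TSSs at 0, 764 and 1753 nt, a common 3′ end and models of 3157, 3018 and 2984 nt. *Trxr1*, thioredoxin reductase, had TSSs 1054 nt apart and models of 2002 and 2276 nt. *Pdcd4*, an inhibitor of translation, had 1 TSS and tandem 3′ ends 1063 nt apart, with last exons of 208 and 1271 nt.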
